A study of Mus musculus with 24 samples.

Results

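Potassium channel genes were followed through mouse dorsal root ganglia, the clusters of sensory neuron cell bodies beside the spinal cord. All 97 genes whose symbol starts with Kcn were taken, of 20782 in the table. By name they comprised 30 pore-forming voltage-gated genes (Kcna, Kcnb, Kcnc, Kcnd, Kcnh, Kcnq), 10 voltage-gated modifier genes (Kcnf, Kcng, Kcns, Kcnv), 15 inward rectifiers (Kcnj), 14 2-pore genes (Kcnk), 8 calcium- or sodium-activated genes (Kcnma, Kcnn, Kcnt, Kcnu), 17 auxiliary genes (Kcnab, Kcne, Kcnip, Kcnmb, Kcnrg) and 3 noncoding genes named after a channel. RNA was sequenced from lumbar ganglia in 8 groups of 3 libraries. Unplated ganglia were embryonic, of age E12.5 or E17.5, or adult L4-5 ganglia of mice that had received a peripheral lesion or a sham operation. Adult lumbar ganglia were dissociated, plated at low density on laminin in Neurobasal-A with B-27, and collected at 6, 12, 24 and 36 h. The labels name the source of every library as DRG neuron and give no strain, genotype, sex, adult age, lesion type or time since surgery. They state cell sorting in 1 text shared by all libraries, without saying whether embryos and operated adults were included.

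Potassium channels let potassium leave or enter the cell and so set the resting potential, the shape of the action potential and the rate of firing. Voltage-gated subunits assemble as tetramers that open on depolarization, and the modifier subunits carry no current alone but join Kcnb subunits and change their gating. Inward rectifiers and 2-pore channels work near rest, in neurons and in the satellite glia that wrap them, while calcium- and sodium-activated channels couple firing to ion entry. In sensory neurons these channels are known as brakes on excitability.

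The pore of these channels is lined by a selectivity filter, and it was printed for 6 genes from different families that the results below turn on. A search of GENCODE M21 coding sequences for 5 codons reading threonine or serine, a small hydrophobic residue (valine, isoleucine or leucine), glycine, then tyrosine, phenylalanine or leucine, then glycine found it in all 30 voltage-gated pore genes, 10 of 10 modifiers, 15 of 15 inward rectifiers, 14 of 14 2-pore genes and 8 of 8 calcium- and sodium-activated genes. It matched at 2 places in 12 of the 14 2-pore genes and at 1 place in Kcnk1 and Kcnk7. Each line gives 51 coding bases of the mm10 genome, 5′ to 3′ on the coding strand, with the 15 filter bases in capitals.
Kcna2 (chr3:107105206-107105256, plus strand): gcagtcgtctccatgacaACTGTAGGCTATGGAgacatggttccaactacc
Kcnh7 (chr2:62777325-62777375, minus strand): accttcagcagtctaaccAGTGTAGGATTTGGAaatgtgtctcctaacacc
Kcns3 (chr12:11091557-11091607, minus strand): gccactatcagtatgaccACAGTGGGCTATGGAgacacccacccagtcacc
Kcnk18, first filter (chr19:59225515-59234835, plus strand, joined across an intron): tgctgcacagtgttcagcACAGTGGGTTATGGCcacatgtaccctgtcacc
Kcnk18, second filter (chr19:59235409-59235459, plus strand): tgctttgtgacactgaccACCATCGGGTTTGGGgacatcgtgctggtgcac
Kcnma1 (chr14:23528395-23528445, minus strand): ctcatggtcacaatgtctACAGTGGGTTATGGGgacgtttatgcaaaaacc
Kcnn4 (chr7:24379180-24379230, plus strand): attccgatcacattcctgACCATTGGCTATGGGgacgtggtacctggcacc
Every stretch except the first of Kcnk18 lies within 1 coding exon. Kcns3, a modifier that forms no channel alone, holds the pattern as the pore genes do.

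Values are normalized read counts, that is, read counts divided by 1 factor per library. Differences are given ± SE on a log2(value + 1) scale, and this scale understates those of low genes. Depth was 3.10 to 25.7 M reads per library. Testing a gene required a value of 10 or more in 3 or more libraries of a fit, and "rose", "fell" or "called" mean an adjusted p of at most 0.05 with limma over all genes tested. The labels do not say that replicate libraries came from different animals, and p-values therefore measure only how far these samples spread, which may be technical. Where a gene reached the test minimum of 10 only in its high group, it had to differ, and its p-value is no support. In bulk RNA, fewer cells of a type and less RNA per cell cannot be told apart. None of the 15 neuron markers was at 0 in any group, and their summed level ran from 58889 to 91679 at E12.5, 186749 to 223877 at E17.5, 421927 to 463673 after sham surgery and 337985 to 381104 after lesion. In culture it ran from 223959 to 269402 at 6 h and from 126474 to 172258 at 36 h. The 6 satellite glia and 7 Schwann cell markers were above 0 in every group too, so markers of glia were detected in libraries labelled as neurons.

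More of these genes peaked in sham-operated adult ganglia than in any other group. The same count was not made over all genes, and the summed neuron markers were highest there too. Of the 88 genes tested in at least 1 fit, 31 had their highest group mean after sham surgery, 16 at E17.5, 10 at 6 h in culture, 9 after lesion, 7 at E12.5, 3 at 12 h and 6 at each of 24 and 36 h. The remaining 9 (Kcna7, Kcna10, Kcnd3os, Kcne1, Kcne2, Kcnk7, Kcnk15, Kcnmb3 and Kcnv2) stayed below the test minimum in every fit, with no value above 27.9, and 75 genes were tested in all fits. Per kilobase of exon, Kcna1 led every adult and culture group, with a level of 3205 ± 211 (SD, n = 3) after sham surgery and 1283 ± 164 at 36 h. Kcna1 encodes a low-threshold subunit that limits repetitive firing. Kcnab2, a beta subunit of Kcna channels, came next after sham surgery (2729 ± 85.8 per kilobase), then Kcnip3 (1323 ± 44.3) and Kcna2 (1164 ± 106). At E17.5 Kcna6 led with 818 ± 91.8 per kilobase, and its level and that of Kcnab2 (706 ± 170) differed by less than their spread. At E12.5 the leading genes were the auxiliary Kcne1l (366 ± 68.5 per kilobase) and Kcnmb2 (150.0 ± 21.8). The heat map of all tested genes shows the E12.5 libraries low for most voltage-gated and modifier genes and the sham libraries high.

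**Figure D1:**
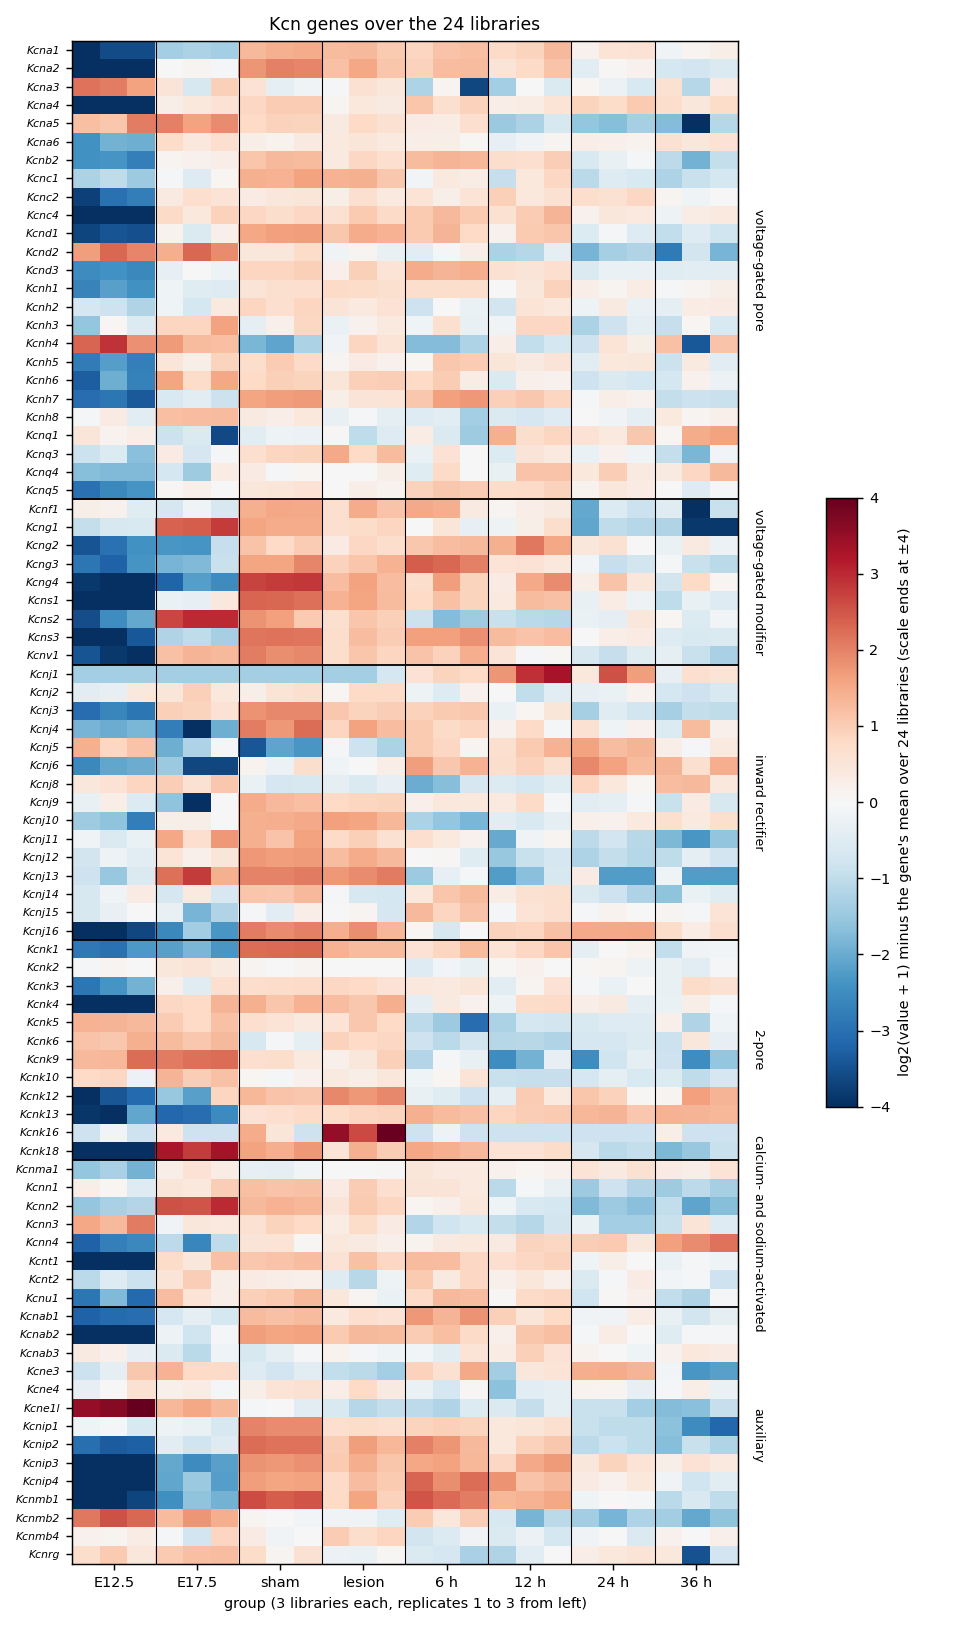
Heat map of the tested coding Kcn genes reported here, 1 row per gene ordered by family and 1 column per library ordered by group; colour is log2(value + 1) minus the gene's mean over the 24 libraries, with the scale ending at ±4. The E12.5 columns are blue in most voltage-gated and modifier rows, and Kcne1l, Kcnmb2 and Kcnd2 are among the rows that are red there.

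Between E12.5 and E17.5, 50 of 81 tested genes rose and 8 fell, against 31.1% and 31.9% of all 14550 genes tested, with a median log2 difference of 1.31 over the Kcn genes and -0.05 over all genes. From E17.5 to sham-operated adults 40 of 83 rose and 20 fell (28.9% and 31.1% of all genes), with a median of 0.54 against -0.03. After lesion 7 of 82 rose and 39 fell (20.9% and 20.2% of all genes), with a median of -0.33 against -0.01. At 6 h in culture 14 of 83 were higher than after sham surgery and 42 lower (27.6% and 30.7%), with a median of -0.45 against -0.06. From 6 to 36 h in culture 13 of 85 rose and 48 fell (25.3% and 25.3%), with a median of -0.96 against 0.02. The share of Kcn genes that fell after lesion and in culture was thus above that of all genes, and the share that rose was below it. These comparisons share libraries: sham enters 3 of them, and E17.5 and the 6 h culture enter 2 each. Members that passed the filter only through their high group had to differ, so these counts describe the genes and are no test of the family.

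The counts after lesion depended on the fit. With 1 spread estimated over all 24 libraries 17 genes fell and 4 rose, in place of 39 and 7, and over all genes tested in that fit 6.49% fell and 9.92% rose, in place of 20.2% and 20.9%. The rises also came to 4 without sham replicate 1, lesion replicate 1 or lesion replicate 3. Sham and lesion libraries came from 2 series of library numbers, and with the series as a term the counts were again 39 and 7. In the other comparisons above, the 50 rises between the embryonic ages became 36 without E17.5 replicate 1 and 38 without E17.5 replicate 3. The 8 falls between these ages became 5 without E12.5 replicate 1 or replicate 2, and the 13 rises in culture became 8 without 36 h replicate 3. Embryonic age, adult against embryo, and culture against sham are confounded with the series of library numbers, so they cannot be told apart from it.

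**Figure D2:**
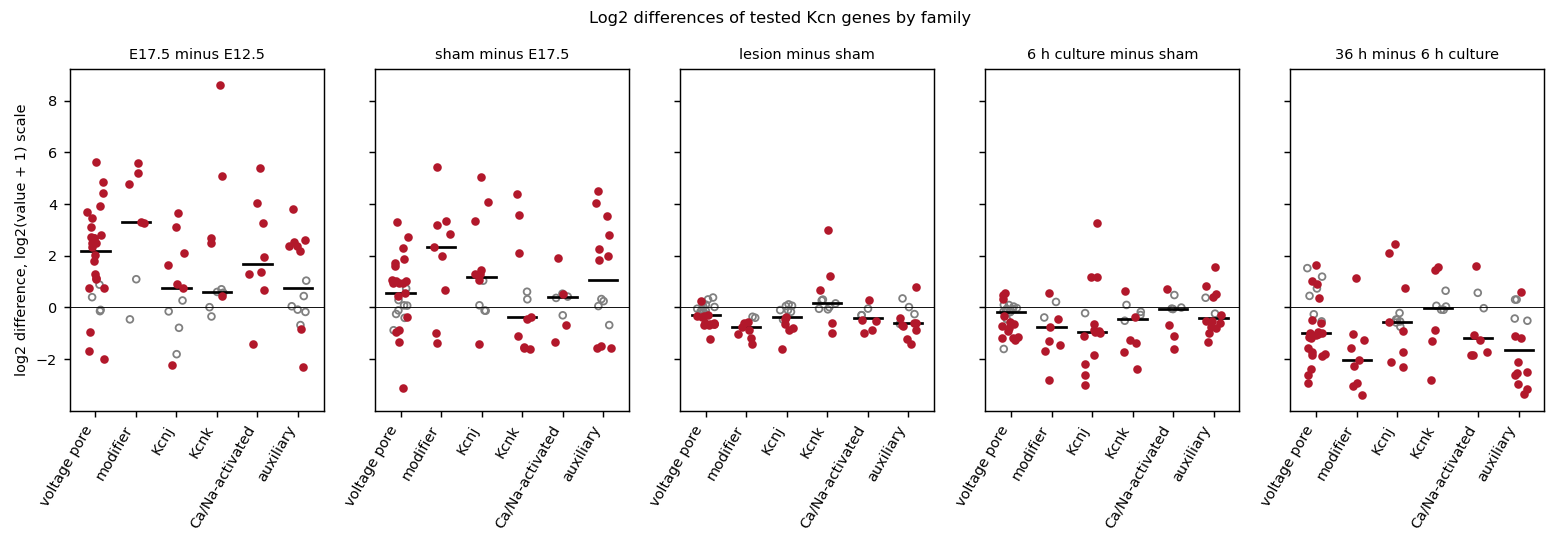
Log2 difference of each tested coding Kcn gene in 5 comparisons (panels), by family (x axis); filled red points passed limma at an adjusted p of 0.05, open points did not, and bars are family medians. Modifier genes sit above 0 from E12.5 to E17.5 (median 3.30) and below 0 after lesion (median -0.76) and at 36 h in culture (median -2.02).

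Voltage-gated pore genes rose across the embryonic ages and most held or gained level into the adult. Of 28 tested, 21 rose from E12.5 to E17.5, 3 fell (Kcna3, Kcnh4 and Kcnq1) and 4 were not called. Of all genes 31.1% rose and 31.9% fell. The falls of Kcnq1 and Kcnh4 were lost in 4 and 6 alternatives (limma adjusted p up to 0.0697 and 0.289). Kcna2, which like Kcna1 sits beside the nodes of myelinated axons, read 142, 179.9 and 202 in the E12.5 libraries and 3732, 3975 and 3508 at E17.5. The groups did not overlap, and the log2 difference was 4.43 ± 0.15 (limma adjusted p = 3.0e-07). Kcna4, an inactivating channel of small sensory neurons, went from 11.5, 12.2 and 14.4 to 352, 399 and 442, all E17.5 libraries above all E12.5 libraries, with a difference of 4.86 ± 0.20 (limma adjusted p = 6.2e-07). Kcnc4, a fast channel that narrows the action potential, went from 8.23, 14.8 and 18.0 to 723, 571 and 795, and its sham values of 745, 697 and 748 overlapped those at E17.5 (log2 difference 0.08, adjusted p = 0.627). Kcnc4 was thus called at the first of these steps and not the second, and Kcna1 and Kcna2 were called at both. At the first step Kcnc4 passed the filter only through its E17.5 libraries, so its call there is no support.

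From E17.5 to the adult, 14 of 27 tested pore genes were higher in sham libraries and 5 lower (28.9% and 31.1% of all genes). Kcna1 stood at 2259, 2391 and 2264 at E17.5 and 14202, 15607 and 16153 after sham surgery, groups far apart, with a difference of 2.73 ± 0.09 (limma adjusted p = 9.0e-08). Kcnd2, an A-type channel, moved the other way from 81.3, 148 and 111 to 40.3, 40.2 and 49.3, a difference of -1.33 ± 0.24 (limma adjusted p = 0.00123). Its relatives Kcnd1 and Kcnd3 rose by 1.70 and 1.05 on the log2 scale in the same comparison (limma adjusted p = 4.9e-05 and 3.9e-05), so the 3 Kcnd genes did not move together.

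After peripheral lesion 12 of 26 tested pore genes fell and 1 rose (20.2% and 20.9% of all genes), and 13 were not called. Kcnh7, of the ether-a-go-go related genes whose channels hold back repetitive firing, had the largest fall. Its sham libraries read 579, 626 and 639 and its lesion libraries 229, 277 and 283, without overlap, and the difference was -1.23 ± 0.10 (limma adjusted p = 1.3e-06). Kcna2 fell from 12426, 14833 and 14299.9 to 8319, 10809.5 and 7981 (-0.63 ± 0.11 (limma adjusted p = 9.5e-04)), while Kcna1 read 14202, 15607 and 16153 and 13975, 14268 and 12111 and was not called (-0.19 ± 0.08 (limma adjusted p = 0.0703)). Kcna4 fell by 0.66 on the log2 scale, from 581 ± 40.9 to 368 ± 43.2 (adjusted p = 1.9e-04). Of the Kcnq genes, whose channels carry the M-current, Kcnq3 read 119, 135 and 138 and 215, 129 and 179, overlapping groups, and was not called (adjusted p = 0.0790), and Kcnq5 fell by 0.37 (adjusted p = 0.00493, up to 0.0955 over the alternatives).

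In culture 18 of 28 tested pore genes fell from 6 to 36 h and 4 rose (25.3% and 25.3% of all genes). Kcnb2, a delayed rectifier, read 1304, 1401 and 1361 at 6 h, 888, 865 and 1077 at 12 h, 354, 442 and 526 at 24 h and 261, 146 and 282 at 36 h. Each time lay below the one before without overlap, and the difference over the course was -2.61 ± 0.21 (limma adjusted p = 1.1e-07). Kcnd3 read 4345, 3974 and 4242 at 6 h and 1105, 1144 and 1153 at 36 h (-1.88 ± 0.11 (limma adjusted p = 4.1e-09)), and Kcnh7 read 409, 603 and 649 and 100.3, 107 and 103 (-2.38 ± 0.17 (limma adjusted p = 4.0e-08)). Kcna1 fell by 1.00 and Kcna2 fell by 1.82 on the log2 scale (limma adjusted p = 9.5e-05 and 5.4e-07). Kcna6, a further Kcna subunit, stood apart with 3845, 3713 and 3293 at 6 h and 4895, 4377 and 4690.3 at 36 h, a small rise of 0.37 ± 0.12 (limma adjusted p = 0.0192) that was lost in 3 alternatives (adjusted p up to 0.0816). Kcnh8 and the low Kcnq1 rose as well, by 1.01 and 1.62 on the log2 scale (adjusted p = 0.00550 and 0.0148). The rise of Kcnq1 was lost in 3 alternatives (limma adjusted p up to 0.0721).

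At 6 h in culture, against sham-operated ganglia, 10 of 26 tested pore genes were lower and 3 higher (30.7% and 27.6% of all genes), so the share that was lower was near that of all genes. Kcnc1, which serves fast spiking, was lower by a log2 difference of -1.26 (limma adjusted p = 1.2e-06). Kcnd3 was higher, with 4345, 3974 and 4242 at 6 h against 2779, 2826 and 2964 (0.55 ± 0.09 (limma adjusted p = 1.4e-04)), and so was Kcnq5 (0.49 ± 0.11 (limma adjusted p = 0.00114)). Kcnb2 and Kcna4 were not called, with log2 differences of 0.10 and -0.06, so the lower level of Kcnb2 appeared between 6 and 36 h. For Kcna4 the difference from 6 to 36 h was -0.27 and not called (adjusted p = 0.153).

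Most modifier genes were low at E12.5 and highest in adult ganglia or at E17.5, and most fell after lesion and in culture. From E12.5 to E17.5, 5 of 7 tested rose and none fell (31.1% and 31.9% of all genes). From E17.5 to sham 7 of 9 rose while Kcns2 and Kcng1 fell (28.9% and 31.1% of all genes). Kcng4 read 8.31, 17.6 and 13.9 at E17.5 and 558, 595 and 602 after sham surgery, the largest rise of all Kcn genes tested in that comparison (5.42 ± 0.25 (limma adjusted p = 3.4e-07)). It passed the filter there only through its sham libraries, so that p-value is no support. Kcns3, whose subunit slows Kcnb channels, rose at both steps, from 11.5, 8.35 and 32.4 at E12.5 to 152, 173 and 139 and then 1570.5, 1606 and 1568 in the adult (differences 3.30 ± 0.44 (limma adjusted p = 2.2e-04) and 3.35 ± 0.12 (limma adjusted p = 1.1e-07)). At the first of these steps Kcns3 passed the filter only through its E17.5 libraries, so the first p-value is no support. Kcns2 had 3 to 9 reads per E12.5 library and read 196, 243 and 243 at E17.5 (log2 difference 5.57). It passed the filter only through its E17.5 libraries and so had to differ there. In sham libraries Kcns2 was lower, at 105, 95.8 and 61.9 (-1.39 ± 0.22 (limma adjusted p = 4.5e-04)).

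After lesion 7 of 9 tested modifiers fell and none rose (20.2% and 20.9% of all genes), with a median log2 difference of -0.76. Kcng4 fell from the sham values above to 200.5, 262 and 199 (-1.41 ± 0.11 (limma adjusted p = 1.1e-06)), and Kcns3 to 572, 840.0 and 719.8 (-1.17 ± 0.11 (limma adjusted p = 1.1e-05)). Kcnv1, a subunit known to silence Kcnb currents, went from 1270.4, 1128 and 1169 to 503, 675 and 564 (-1.04 ± 0.10 (limma adjusted p = 4.8e-06)), and Kcns1, variants of which have been studied in human pain, from 1204 ± 58.2 to 664 ± 68.2 (-0.86 ± 0.08 (limma adjusted p = 5.7e-06)). None of these 4 genes had a lesion library as high as a sham library, and all 4 kept their call in every alternative run. The weaker falls of Kcng1, Kcng3 and Kcns2 did not, with adjusted p up to 0.344, 0.287 and 0.280.

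In culture 8 of 9 modifiers fell from 6 to 36 h (25.3% of all genes), and Kcns2 rose, a call lost in 3 alternatives (limma adjusted p up to 0.0827). Kcns3 read 1099, 1106 and 1252 at 6 h, 849, 783 and 841 at 12 h, 352, 425 and 442 at 24 h and 245, 231 and 237 at 36 h, with no overlap between successive times and a difference of -2.27 ± 0.12 (limma adjusted p = 2.0e-09). Kcng3 fell from 147, 135 and 109 to 24.8, 14.0 and 12.0 (-2.93 ± 0.32 (limma adjusted p = 2.7e-06)). Kcnf1 read 128, 121 and 56.4 and 31.3, 0 and 23.1, with 36 h replicate 2 at 0 (a difference of -3.39, limma adjusted p = 0.00585). Against sham, 6 of 9 tested modifiers were lower at 6 h and 1 was higher (30.7% and 27.6% of all genes). The falls were led by Kcns2, which read 16.0, 8.25 and 10.6 (-2.83 ± 0.30 (limma adjusted p = 1.7e-06)), and Kcng3 was higher (0.55 ± 0.18 (limma adjusted p = 0.0185)). That rise was lost in 4 alternatives, with adjusted p up to 0.174.

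**Figure D3:**
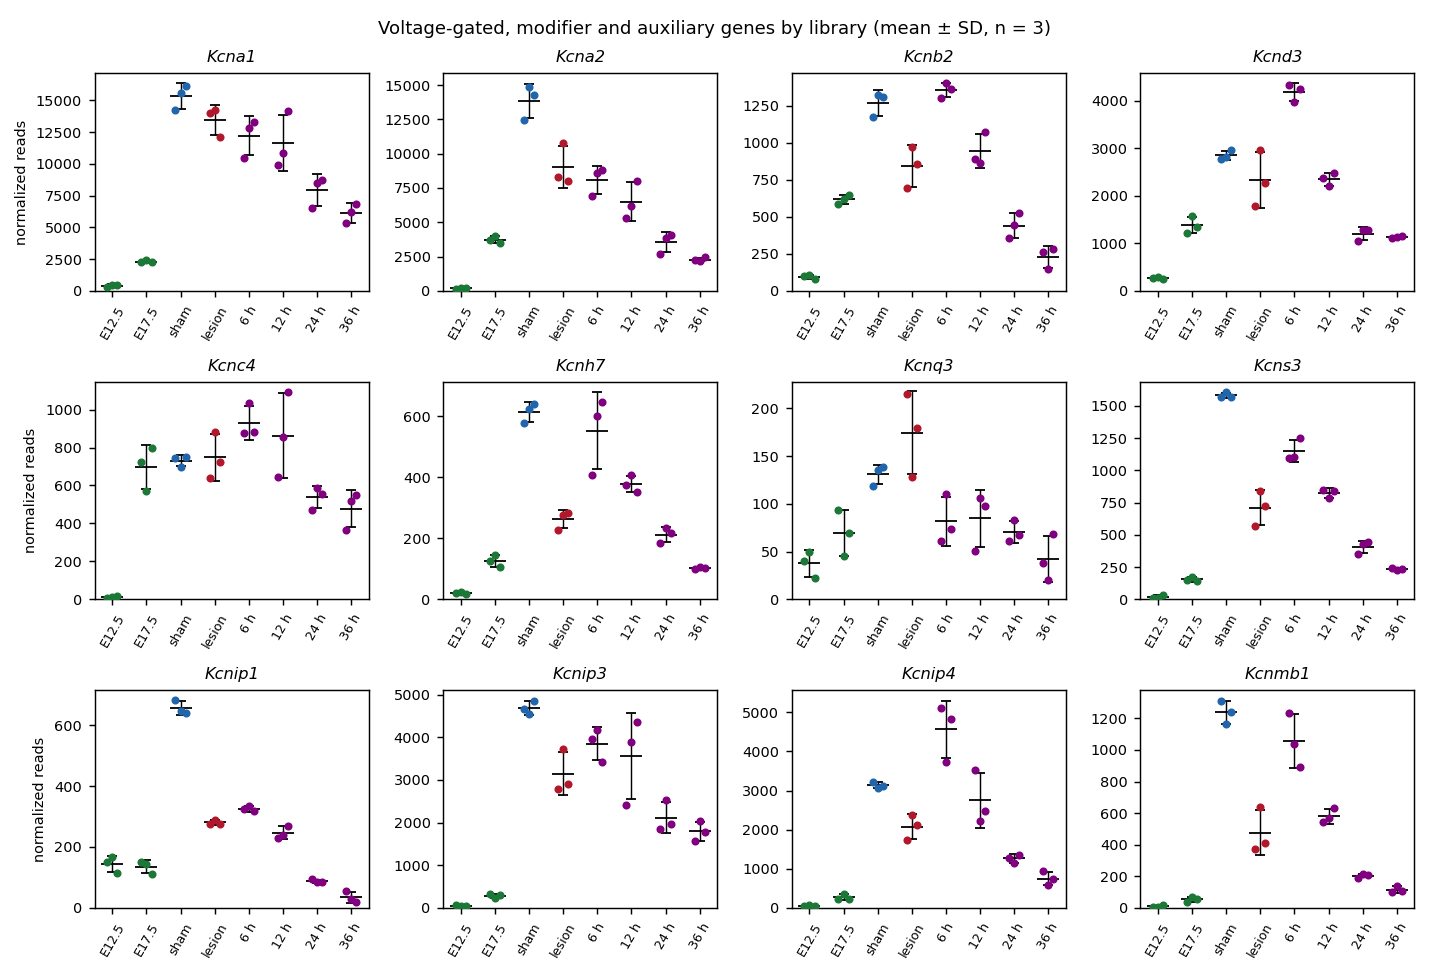
Normalized read counts of 12 voltage-gated, modifier and auxiliary genes in each library (points), by group on the x axis, with mean and SD (bars, n = 3); the y axes start at 0 and differ between panels. Kcns3, Kcnip1, Kcnip3 and Kcnmb1 peak in the sham libraries, and Kcnd3 and Kcnip4 peak at 6 h in culture.

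Auxiliary subunits are of several classes. The 4 Kcnip genes encode calcium-binding proteins that join Kcnd channels and raise their surface level. Of these, 3 rose from E12.5 to E17.5, all 4 rose into the adult, all 4 fell after lesion and all 4 fell from 6 to 36 h in culture. The shares of all genes were 31.1%, 28.9%, 20.2% and 25.3%. Kcnip3, whose protein is also known as a transcriptional repressor, read 329, 236 and 298 at E17.5, 4657, 4554 and 4863 after sham surgery and 2799.6, 3721 and 2916 after lesion, 3 ranges without overlap. Its difference was 4.03 ± 0.13 (limma adjusted p = 9.0e-08) into the adult and -0.59 ± 0.09 (limma adjusted p = 3.4e-04) after lesion. Kcnip1 read 152, 168 and 114 at E12.5 and 151, 145 and 111 at E17.5 and was not called there (adjusted p = 0.741). After sham surgery it read 681, 646 and 639, and after lesion 276, 289 and 277, a difference of -1.22 ± 0.08 (limma adjusted p = 4.0e-07). From 6 to 36 h in culture it went from 323, 335 and 317 to 55.0, 29.5 and 18.5 (-3.34 ± 0.28 (limma adjusted p = 1.5e-07)), down at each step. Kcnip2 fell to 124, 219 and 175 at 36 h from 1659.8, 1385 and 991 at 6 h (-2.96 ± 0.23 (limma adjusted p = 6.3e-08)).

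Kcnip4 differed from the other 3 at the start of culture. It read 3227, 3069.6 and 3119.8 after sham surgery and 5124, 3727 and 4841 at 6 h, higher in every library (0.53 ± 0.12 (limma adjusted p = 0.00123)), whereas Kcnip1, Kcnip2 and Kcnip3 were lower at 6 h (log2 differences -1.01, -0.51 and -0.29). The call for Kcnip3 was lost in 4 alternatives (adjusted p up to 0.181), and the difference between Kcnip4 and the others was not tested. By 36 h Kcnip4 read 932, 581 and 738, below every sham library (-2.62 ± 0.19 (limma adjusted p = 3.5e-08) from 6 h). Among its partners, Dpp10, an auxiliary protein of Kcnd channels, had a similar course, with 1677 ± 114 after sham surgery, 2511 ± 467 at 6 h and 304 ± 54.9 at 36 h. Dpp6, the other auxiliary protein of Kcnd channels among the partners, was lower at 6 h, at 3857 ± 460.0 against 4684 ± 203 after sham surgery (-0.29 ± 0.10 (limma adjusted p = 0.0290)).

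Kcnmb1, a beta subunit that raises the calcium sensitivity of Kcnma1 channels, had the largest fall after lesion among the genes with a sham mean of at least 100, within its error of that of Kcng4. It read 1313, 1166 and 1238 after sham surgery and 374, 639.6 and 413 after lesion (-1.42 ± 0.18 (limma adjusted p = 3.1e-04)). At E17.5 it had been 38.5, 70.5 and 57.8, and in culture it went from 1236, 1040.0 and 892 at 6 h to 102, 141 and 105 at 36 h (-3.17 ± 0.16 (limma adjusted p = 9.5e-10)). The sham range overlapped that at 6 h and lay above those at E17.5 and 36 h. Kcnmb4, the neuronal beta subunit, moved the opposite way after lesion, from 243, 177 and 192 to 390.1, 319 and 355, all lesion libraries above all sham libraries (0.80 ± 0.13 (limma adjusted p = 2.4e-04)). It rose in culture from 117, 131 and 176 to 219, 191 and 222 (0.59 ± 0.21 (limma adjusted p = 0.0276)), a call lost in 5 alternatives with adjusted p up to 0.116. Kcnmb2, an inactivating beta subunit, was highest in the embryo, at 405, 540.3 and 463 at E12.5, 224, 314 and 254 at E17.5 and 100.4, 92.1 and 86.0 in sham libraries. It fell at both steps (-0.83 ± 0.17 (limma adjusted p = 0.00302) and -1.49 ± 0.17 (limma adjusted p = 5.9e-05)), was higher at 6 h in culture (0.81 ± 0.18 (limma adjusted p = 0.00142)) and fell from there (-2.50 ± 0.32 (limma adjusted p = 1.3e-05)).

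Of the Kcna beta subunits, Kcnab1 and Kcnab2 rose at both steps towards the adult and fell after lesion and from 6 to 36 h in culture. Kcnab2 rose from 269, 281 and 270.3 at E12.5 to 4287, 2864 and 4662 at E17.5 and 15709, 14752 and 15208 in sham libraries (3.81 ± 0.18 (limma adjusted p = 1.0e-06) and 1.98 ± 0.16 (limma adjusted p = 9.0e-06)). It fell after lesion to 10368, 12339 and 11951 (-0.40 ± 0.08 (limma adjusted p = 9.3e-04)), a call lost with 1 spread over all 24 libraries (adjusted p = 0.198). Kcnab3 was not called in any comparison. Kcne1l, a single-span subunit, was, like Kcnmb2, highest at E12.5, with 483, 526 and 683 at E12.5, 105, 123 and 104 at E17.5 and 39.4, 42.4 and 30.4 in sham libraries, falling at both steps (-2.32 ± 0.17 (limma adjusted p = 7.9e-06) and -1.55 ± 0.21 (limma adjusted p = 1.7e-04)). Dividing-cell markers fell too over those steps, 5 of 5 at each, and spinal cord and neural precursor markers 5 of 6 tested from E12.5 to E17.5. Their part in the Kcne1l falls was not tested.

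Most inward rectifiers were lower on dissociation: 10 of 14 tested were lower at 6 h in culture than after sham surgery (30.7% of all genes), 3 were higher (27.6% of all genes) and 1 was not called. Kcnj10, the main potassium buffering channel of satellite glia, read 1749, 1810.0 and 1881 in sham libraries and 274, 226 and 183 at 6 h (-3.00 ± 0.14 (limma adjusted p = 2.1e-10)), the largest fall of these genes. It then rose to 483, 436 and 514 at 12 h, 762, 741 and 863 at 24 h and 1017, 857 and 1056 at 36 h, with no overlap between 6 h and any later time (2.11 ± 0.15 (limma adjusted p = 3.3e-08) from 6 to 36 h). Kcnj16, which pairs with Kcnj10, read 162, 147 and 161 in sham libraries, 40.7, 24.7 and 38.8 at 6 h, 113, 112 and 115 at 24 h and 64.7, 48.1 and 61.8 at 36 h. It was lower at 6 h (-2.17 ± 0.21 (limma adjusted p = 7.6e-07)), and its rise to 36 h (0.75 ± 0.24 (limma adjusted p = 0.0160)) was lost in 2 alternatives (adjusted p up to 0.0861).

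Glial markers moved with these 2 genes at the first of these steps. Of 6 satellite glia markers 5 were lower and 1 higher at 6 h than after sham surgery (median log2 difference -0.53, summed level 20589 to 22346 against 43867 to 52270), and 7 of 7 myelinating Schwann cell markers were lower (median -2.65). From 6 to 36 h the satellite glia markers had 1 rise and 3 falls with a median of -0.09 and a summed level of 22246 to 26436 at 36 h, while Kcnj10 rose. The part of glial RNA in the fall of Kcnj10 was not tested. After lesion Kcnj10 read 2058, 1976 and 1639.7 and was not called (0.05 ± 0.09 (limma adjusted p = 0.637)), with lesion values on both sides of the sham range.

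Kcnj12, a strong rectifier that holds the resting potential, fell with Kcnj10 on dissociation but did not return. It read 1181, 1146 and 1161 after sham surgery, 356, 366 and 257 at 6 h and 177, 278 and 208 at 36 h (-1.85 ± 0.13 (limma adjusted p = 2.7e-08) at 6 h). Its further fall to 36 h (log2 difference -0.57, adjusted p = 0.0485) was lost in 10 alternatives, with adjusted p up to 0.178. Kcnj3, a G protein-gated subunit, fell after lesion from 264, 286 and 287 to 161, 140.3 and 149 (-0.89 ± 0.11 (limma adjusted p = 2.5e-05)) and in culture from 144, 157 and 159 to 29.1, 38.8 and 36.9 (-2.11 ± 0.26 (limma adjusted p = 9.8e-06)). Its partners were low: Kcnj5 read 0, 1.46 and 1.15 in sham libraries and 21.1, 18.1 and 10.6 at 6 h. Kcnj5 passed the filter only through its 6 h libraries and so had to differ. Kcnj6 rose at 6 h from 12.8, 9.50 and 19.5 to 38.5, 25.3 and 31.7 (limma adjusted p = 0.00740). Kcnj6 too passed the filter only through its 6 h libraries, so its call is no support. Of this G protein-gated class, Kcnj3 and Kcnj9 were lower at 6 h (log2 differences -0.86 and -0.97). The call of Kcnj9 was lost with all 24 libraries in 1 fit (limma adjusted p = 0.211).

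Kcnj8 and Kcnj11 form the pore of ATP-sensitive channels and moved apart in culture. Kcnj8, known from vessel wall cells, read 13.8, 17.0 and 35.3 at 6 h and 137, 143 and 76.6 at 36 h (2.44 ± 0.35 (limma adjusted p = 3.4e-05)), and Kcnj11, the neuronal form, 154, 126 and 109 and 27.0, 18.6 and 31.4 (-2.31 ± 0.42 (limma adjusted p = 3.1e-04)). The sulfonylurea receptor gene Abcc9, whose protein joins Kcnj8, rose from 58.3 ± 7.52 to 212 ± 74.9 over the same hours (1.78 ± 0.26 (limma adjusted p = 4.8e-05)). Of 6 endothelial markers 6 rose from 6 to 36 h (median 0.99), and of 5 mural cell markers 2 rose (median 0.27); the part of vessel cells in the rise of Kcnj8 was not tested. Kcnj8 also fell into the adult, from 115, 88.2 and 123 at E17.5 to 47.2, 35.8 and 36.1 (-1.43 ± 0.22 (limma adjusted p = 3.9e-04)). At that step 7 of 12 tested inward rectifiers rose (28.9% of all genes). Among them were Kcnj10 (1.30 ± 0.10 (limma adjusted p = 6.4e-06)) and Kcnj16, which went from 5.68, 14.1 and 6.94 to the sham values above (4.08 ± 0.32 (limma adjusted p = 6.6e-06)). Kcnj16 passed the filter there only through its sham libraries, so its p-value is no support. All 7 myelinating Schwann cell markers rose at that step (median 3.10) and 3 of 6 satellite glia markers. Of 6 endothelial markers 4 fell and none rose (median -1.21), of 6 fibroblast markers 4 fell and 1 rose (median -2.47), and of 5 mural cell markers 2 fell and 2 rose (median -0.28). The part of these cells in the differences was not tested.

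**Figure D4:**
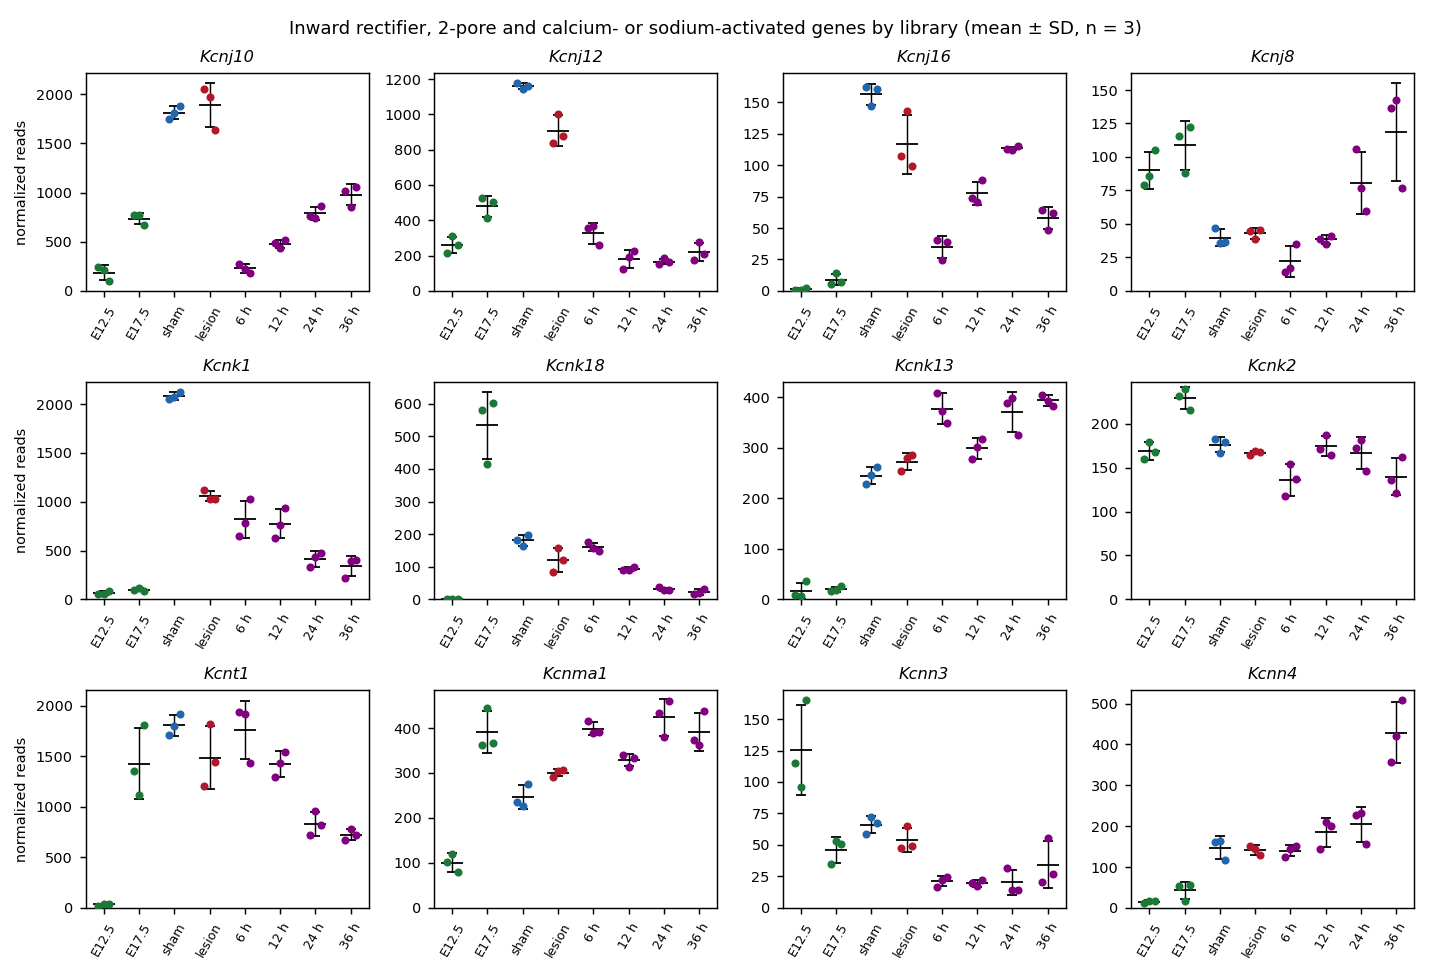
Normalized read counts of 12 inward rectifier, 2-pore and calcium- or sodium-activated genes in each library (points), by group on the x axis, with mean and SD (bars, n = 3); the y axes start at 0 and differ between panels. The mean of Kcnj10 is lowest among the adult groups at 6 h and higher at each later time, Kcnk18 is highest at E17.5, and Kcnn4 is highest at 36 h.

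Among the 2-pore genes, which carry leak currents, the members had separate courses. Kcnk18, a calcium-regulated leak channel of sensory neurons, had 0, 0 and 1.44 normalized reads at E12.5 and 580.2, 416 and 603 at E17.5. With 2 reads behind the E12.5 libraries together and 1706 behind those at E17.5, the ratio was 1353 with an exact 95% interval of 374 to 11190, which covers counting error only. Kcnk18 passed the filter only through its E17.5 libraries and so had to differ there, and the interval is no support. It was lower in sham libraries, at 183, 163 and 198 (-1.54 ± 0.17 (limma adjusted p = 4.8e-05)), and fell in culture from 175, 159 and 148 at 6 h to 89.6, 88.7 and 99.7 at 12 h, 36.9, 27.7 and 30.0 at 24 h and 16.2, 20.2 and 31.4 at 36 h (-2.83 ± 0.26 (limma adjusted p = 3.7e-07)). Its fall after lesion, to 85.1, 159 and 119.7 (-0.62 ± 0.19 (limma adjusted p = 0.0212)), was lost in 5 alternatives (adjusted p up to 0.176).

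Kcnk1, a weakly conducting leak subunit, was an adult gene in these data. It read 58.7, 54.0 and 86.5 at E12.5 and 94.4, 119.9 and 85.6 at E17.5, overlapping ranges that were not called (adjusted p = 0.0606), and 2048, 2074 and 2125 after sham surgery (4.38 ± 0.14 (limma adjusted p = 8.5e-08)). After lesion it read 1120.0, 1032 and 1033 (-0.97 ± 0.07 (limma adjusted p = 5.1e-07)), at 6 h in culture 648, 783 and 1026 (-1.37 ± 0.14 (limma adjusted p = 9.3e-07)) and at 36 h 219, 392 and 403 (-1.30 ± 0.24 (limma adjusted p = 3.2e-04)). Every sham library lay above every library of the other 7 groups. Kcnk13, which is also known from microglia, rose into the adult from 16.6, 17.6 and 25.4 to 227, 246 and 261 (3.58 ± 0.21 (limma adjusted p = 1.2e-06)) and was higher again at 6 h, at 409, 373 and 349 (0.62 ± 0.13 (limma adjusted p = 6.8e-04)). That last call was lost with 1 spread over all 24 libraries (adjusted p = 0.120), and macrophage markers had 3 falls and no rise of 5 tested between sham and 6 h.

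Kcnk12 and Kcnk5 were low at 6 h and higher again at 36 h. Kcnk12 read 129.9, 113 and 109.5 after sham surgery, 196, 174 and 197 after lesion, 42.1, 36.3 and 28.2 at 6 h and 55.0, 161 and 133 at 36 h. It rose after lesion (0.68 ± 0.12 (limma adjusted p = 6.5e-04)), a call lost with 1 spread over all 24 libraries (adjusted p = 0.439), was lower at 6 h (-1.71 ± 0.21 (limma adjusted p = 6.7e-06)) and rose to 36 h (1.56 ± 0.42 (limma adjusted p = 0.00536)). Kcnk5, an alkali-activated leak channel, read 152, 140.4 and 125, 45.7, 34.1 and 10.6 and 110.0, 40.3 and 84.9 in sham, 6 h and 36 h libraries. Its rise from 6 to 36 h was lost in 2 alternatives (limma adjusted p up to 0.0720). Kcnk2, a stretch- and temperature-sensitive leak channel, varied little, between 118 and 239.8 over all 24 libraries. Its values were 182, 167 and 179.5 after sham surgery and 165, 169 and 168 after lesion, which overlapped (-0.07 ± 0.11 (limma adjusted p = 0.605)). Its calls at E17.5 against E12.5 and against sham, and at 6 h against sham, were lost in 3, 5 and 8 alternatives (adjusted p up to 0.105, 0.120 and 0.150). The smaller Kcnk6 went from 22.6, 33.6 and 27.5 to 68.9, 63.5 and 64.8 after lesion (1.22 ± 0.20 (limma adjusted p = 3.2e-04)). Kcnk16 went from 3.94, 1.46 and 0 to 19.4, 10.0 and 26.6 (3.00 ± 0.58). It passed the filter only through its lesion libraries and so had to differ, which makes its call no support. Kcnk16 is otherwise known from the pancreas, and no library outside the lesion group exceeded 3.94. Macrophage markers rose after lesion, 5 of 6 tested (median 1.20, summed level 1516 to 2276 against 693 to 719), and their part in the rises of Kcnk6 and Kcnk16 was not tested.

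Of the calcium- and sodium-activated genes, 7 of 8 rose from E12.5 to E17.5 and Kcnn3 fell (31.1% and 31.9% of all genes). Kcnt1, the sodium-activated channel that follows bursts of firing, went from 22.5, 38.5 and 39.6 to 1354, 1115 and 1810.5 (5.38 ± 0.26 (limma adjusted p = 1.0e-06)). It then stayed uncalled into the adult, after lesion and at 6 h (log2 differences 0.37, -0.30 and -0.05) and fell from 1941, 1916 and 1432 to 672, 778 and 717 in culture (-1.27 ± 0.14 (limma adjusted p = 3.3e-06)). Kcnma1, the large-conductance channel, read 102, 121 and 79.3, 361, 444 and 368 and 236, 227 and 276 at E12.5, E17.5 and after sham surgery, a rise (1.96 ± 0.19 (limma adjusted p = 3.7e-05)) and then a fall (-0.66 ± 0.14 (limma adjusted p = 0.00274)). After lesion it read 292, 304 and 306, above all sham libraries (0.29 ± 0.10 (limma adjusted p = 0.0360)), though that call was lost in 7 alternatives (adjusted p up to 0.170). At 6 h in culture it read 415, 388 and 391 (0.69 ± 0.13 (limma adjusted p = 2.8e-04) against sham), and at 36 h 374, 361 and 438, not called (adjusted p = 0.863). Its beta subunit Kcnmb1 was thus lower after lesion while the pore gene was not. Of the 8 calcium- and sodium-activated genes, 4 fell after lesion and 1, Kcnma1, rose (20.2% and 20.9% of all genes).

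At 6 h in culture 3 of the 8 calcium- and sodium-activated genes were lower than after sham surgery and 1 was higher (30.7% and 27.6% of all genes). The share that was lower was thus near that of all genes. The 3 were the small-conductance genes Kcnn1, Kcnn2 and Kcnn3, whose channels give the slow pause after a spike. Their log2 differences were -0.69, -1.09 and -1.61 (limma adjusted p = 8.7e-05, 1.5e-04 and 5.8e-05). Kcnn3 had been 115, 96.4 and 165 at E12.5 and 34.5, 52.9 and 50.9 at E17.5 (-1.41 ± 0.27 (limma adjusted p = 0.00186)). Kcnn2 peaked at E17.5, at 263, 254 and 351, against 108, 116 and 112 in sham libraries (-1.34 ± 0.16 (limma adjusted p = 9.0e-05)). From 6 to 36 h in culture 5 of the 8 calcium- and sodium-activated genes fell and 1 rose (25.3% and 25.3% of all genes). The 1 that rose was Kcnn4, the intermediate-conductance relative known from immune cells and glia. It read 124, 145 and 152 at 6 h, 144, 211 and 199 at 12 h, 226, 232 and 156 at 24 h and 358, 422 and 508 at 36 h (1.60 ± 0.20 (limma adjusted p = 1.1e-05)), and every 36 h library lay above every earlier one. Macrophage markers rose too, 3 of 5 tested from 6 to 36 h (median 1.28), from a summed level of 166 to 197 to one of 342 to 389; their part in the rise of Kcnn4 was not tested.

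Within the culture course, 56 of 85 tested genes differed over the 4 times (45.7% of all genes). From 6 to 12 h 3 rose and 15 fell (5.86% and 4.72% of all genes), from 12 to 24 h 3 rose and 27 fell (4.82% and 6.74%), and from 24 to 36 h 1 rose, Kcnn4, and 9 fell (1.11% and 1.55%). All 4 Kcnip genes fell between 12 and 24 h. Single libraries moved these counts. The 3 rises from 6 to 12 h became 7 without 12 h replicate 1, a library of 3.14 M reads, and the 15 falls became 9 without 6 h replicate 1, 8 without 6 h replicate 3 and 9 without 12 h replicate 2. The 27 falls became 16 without 12 h replicate 2 and 15 without 12 h replicate 3 or 24 h replicate 1. The 9 falls became 4 without 24 h replicate 2, 2 without 24 h replicate 3, and 4 without 36 h replicate 2 or replicate 3. The rise of Kcnn4 from 24 to 36 h was lost without 24 h replicate 3 or 36 h replicate 3.

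Many genes were called in more than 1 comparison. Of the 39 genes that fell after lesion, 32 also fell from 6 to 36 h in culture and 29 had risen from E12.5 to E17.5, and 33 genes rose between the embryonic ages and fell in culture. Of the 7 that rose after lesion, 4 also rose in culture, among them Kcnk12, Kcnmb4 and the noncoding Kcnq1ot1. The same overlaps were not counted over all genes, so whether these are particular to Kcn genes was not tested. The medians of the neuron markers had the same signs as those of the Kcn genes in all 5 comparisons. Of 15 markers 12 rose and 1 fell from E12.5 to E17.5 (median log2 difference 2.00), 6 rose and 3 fell into the adult (median 0.15), and 5 rose and 8 fell after lesion (median -0.26). At 6 h in culture 2 were higher and 9 lower than after sham surgery (median -0.45, as over the Kcn genes), and 1 rose and 9 fell from 6 to 36 h in culture (median -0.81). The part of neuron number or neuron RNA in these counts was not tested.

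The 3 noncoding genes have values of their own, but whether counting used strand is not given in the sources used here, so their reads cannot be told from those of the overlapping genes. Kcnq1ot1, a long antisense transcript from the imprinted Kcnq1 locus, read 764, 774 and 766 at E12.5, 291, 483 and 268 at E17.5, 110.2, 129 and 114 after sham surgery and 165, 159 and 146 after lesion. In culture it read 302, 319 and 286 at 6 h, 1107, 549 and 599 at 12 h, 1813, 1536 and 1641 at 24 h and 1063, 724 and 1050.5 at 36 h. It fell at both steps towards the adult (-1.19 and -1.51, limma adjusted p = 0.00123 and 3.0e-04), and its 24 h libraries were above those of every other group. Its rise after lesion (0.41 ± 0.12 (limma adjusted p = 0.0160)) was lost in 3 alternatives, with adjusted p up to 0.205.

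Of 28 genes for proteins known to work with these channels, 21 of 25 tested rose and 2 fell from E12.5 to E17.5 (31.1% and 31.9% of all genes), 14 of 26 rose and 7 fell into the adult (28.9% and 31.1%), and 5 of 27 rose and 14 fell after lesion (20.9% and 20.2%). From 6 to 36 h in culture 4 of 26 rose and 14 fell (25.3% and 25.3%). At 6 h 6 of 26 were higher and 7 lower than after sham surgery, shares no larger than the 27.6% and 30.7% of all genes. Dpp10 and Lgi3, a secreted protein linked to Kcna channels on axons, rose from E12.5 to E17.5 by 3.49 and 3.70 on the log2 scale (limma adjusted p = 2.2e-06 and 5.9e-05). After lesion Lgi3 fell from 3291 ± 165 to 1475 ± 134 (-1.16 ± 0.08 (limma adjusted p = 4.2e-07)). Rest, a repressor of neuronal genes including channel genes, moved the other way: its E12.5 mean of 707 ± 229 fell to 182 ± 12.0 at E17.5 (-1.91 ± 0.21 (limma adjusted p = 8.1e-05)) and to 82.9 ± 20.4 after sham surgery (-1.15 ± 0.20 (limma adjusted p = 9.7e-04)). It rose after lesion to 142 ± 11.9 (0.79 ± 0.17 (limma adjusted p = 0.00266)), was higher at 6 h at 204 ± 40.8 (1.30 ± 0.20 (limma adjusted p = 7.7e-05)) and rose to 453 ± 34.0 at 36 h (1.17 ± 0.15 (limma adjusted p = 1.5e-05)).

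Promoter letters were read for 71 of the 97 genes with an entry in RefSeq's GRCm38.p6 table, 96 windows of the 250 bases before a start, on both strands. Both ends of the Rest binding element were searched. The first, TTCAGCACC, was in 1 window (Kcnh6), 1.04% against 0.301% of 32851 windows of all genes, and the other, whose letters are not printed, was in 0 windows against 0.0974%. The CRE letters TGACGTCA were in 0 windows against 1.55%, and the GC box letters GGGGCGGGG in 12, 12.5% against 10.4%. The AP-1 letters TGANTCA were in 4 windows (Kcne3, Kcnip3, Kcnip4 and Kcnk2), 4.17% against 6.75% of all windows. Of the Kcnip genes, 1 of 3 windows of Kcnip3 and 1 of 2 of Kcnip4 held them, and 0 of 3 of Kcnip1 and 0 of 1 of Kcnip2. All 4 genes fell after lesion and from 6 to 36 h. Kcnip4 was called opposite to the others at 6 h, where the call of Kcnip3 was lost in some alternatives. Any link between these letters and the changes was not tested. The matching windows of Kcnip3 and Kcnip4 are shown, with the AP-1 letters in capitals, 5′ to 3′ on the gene's strand.
Kcnip3 (chr2:127522095-127522344, minus strand): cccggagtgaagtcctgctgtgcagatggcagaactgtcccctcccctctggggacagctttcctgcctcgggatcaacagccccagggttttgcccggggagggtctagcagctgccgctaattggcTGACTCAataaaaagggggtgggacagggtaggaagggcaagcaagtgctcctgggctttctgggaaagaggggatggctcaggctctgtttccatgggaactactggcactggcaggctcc
Kcnip4 (chr5:49285660-49285909, minus strand): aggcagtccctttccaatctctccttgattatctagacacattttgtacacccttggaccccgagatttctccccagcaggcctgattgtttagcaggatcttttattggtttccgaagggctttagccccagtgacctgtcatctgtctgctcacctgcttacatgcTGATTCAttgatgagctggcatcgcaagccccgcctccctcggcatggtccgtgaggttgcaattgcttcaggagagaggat
The match starts 122 bases before the start in Kcnip3 and 82 bases before it in Kcnip4. A match is a description of letters and not a site.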

How the data were processed

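RNA-seq was made with TruSeq V2 kits from 10 ng of total RNA, per the labels' protocols, and the submitters' processing notes name TopHat and mm10. Not given in the sources used here: counting tool, annotation, strand setting and scaling method. The deposited signal is a normalized read count: with 1 step per library, 100% of 339612 values checked were whole reads within 0.1. All 24 columns were matched to samples and 0 were left over.

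The members and gene lists were chosen with earlier results of these data known. Limma 3.58.1 in R 4.3.3 (trend, robust) was run on log2(value + 1) over all genes with at least 3 libraries at a value of 10 or more, with Benjamini-Hochberg adjustment and a threshold of 0.05. Each comparison used its own groups, and the 4 culture times shared 1 fit. The test plan named this test for normalized values and edgeR for raw counts, so limma was kept for this signal. The fits were tested on simulated data. Alternatives were a pseudocount of 10, no filter, a minimum of 50, TMM scaling, edgeR 4.0.16 and DESeq2 1.42.0 on the recovered reads, each library left out, the library number series (lesion) and 1 fit over all libraries.

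Members given in every library were, per comparison, up to 8 rises and 8 falls by size with a higher mean of at least 100 and groups that did not overlap, the 2 highest members per family and 14 channels known in sensory ganglia; other members were chosen after their values were seen. Some members are counted but not reported by name here. Lengths and coding sequences came from GENCODE M21 and promoters from RefSeq GRCm38.p6. At least 1 E12.5 value of Kcnj9, Kcnk16 and Kcnq1 lay within 1 read of a mean over all libraries trimmed by 4 at each end, as a replaced outlier would.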

Additional observations from a re-analysis of the deposited data

How the results depend on the processing

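No called Kcn gene changed sign in any alternative run that tested it. Calls that held in every alternative that tested the gene numbered 49 of 58 from E12.5 to E17.5, 53 of 60 from E17.5 to sham and 20 of 46 after lesion. They numbered 40 of 56 from sham to 6 h and 45 of 61 from 6 to 36 h in culture. A gene that an alternative left untested was not counted as lost there. At the steps within culture 9 of 18 held from 6 to 12 h, 16 of 30 from 12 to 24 h and 1 of 10 from 24 to 36 h. With a minimum value of 50, 4 genes fell from E12.5 to E17.5 in place of 8. With 1 spread over all 24 libraries, 4 rose and 17 fell after lesion in place of 7 and 39, and 5 rose from 6 to 12 h in place of 3. With DESeq2, 2 rose from 24 to 36 h in place of 1. Leaving out each library in turn gave 5 to 8 falls from E12.5 to E17.5, 4 to 8 rises after lesion and 8 to 14 rises from 6 to 36 h. It gave 3 to 7 rises and 8 to 17 falls from 6 to 12 h, 15 to 33 falls from 12 to 24 h, and 0 to 1 rises and 2 to 13 falls from 24 to 36 h. The highest counts came without 12 h replicate 1 (33 and 13 falls, 14 and 7 rises), 36 h replicate 2 (17 falls) and sham replicate 3 (8 rises), and the libraries behind the lowest are named in the results. The cause was not tested. Where a single library was left out, the remaining pair was assumed to vary like the other groups. Depth of 3.10 to 4.57 M reads in the shallowest libraries limits what can be said of genes with few reads. No paired analysis was possible because the labels give no replicate numbers shared between groups.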

Other observations

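Some low members had courses of their own, given here as values chosen after they were seen. Kcnj1, a kidney potassium channel gene, was at 0 in every library at E12.5, E17.5 and after sham surgery and had 1 lesion library above 0. In culture it read 2.90, 3.85 and 3.53 at 6 h, 7.79, 18.5 and 24.6 at 12 h, 2.46, 14.1 and 7.29 at 24 h and 1.08, 3.10 and 2.77 at 36 h. Kcnh4, an ether-a-go-go family gene, read 51.6, 77.1 and 36.8 at E12.5, 33.7, 24.7 and 23.1 at E17.5 and 1.97, 1.46 and 3.44 after sham surgery. After lesion it read 8.51, 18.4 and 14.5, above every sham library.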
